A study of Mus musculus with 94 samples.

Results

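Ribosome biogenesis is the making of ribosomes, which begins in the nucleolus. RNA polymerase I transcribes a long precursor of ribosomal RNA, small nucleolar ribonucleoproteins (snoRNPs) guide its chemical modification, and large assemblies of proteins cut, fold and package it into a small and a large ribosomal subunit. The genes of this pathway are known for high activity in growing and dividing cells, and MYC is a known activator of many of them. A fixed list of 40 of these genes, chosen with earlier results of these data known, was examined in single basophils from mouse bone marrow. All 40 were found by symbol among the 46078 mouse genes of the count table, and all 40 had reads in at least 10 of the cells used.

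Basophils are granulocytes that bind IgE through the receptor FcεRI. The study sorted live lineage-negative, Sca1-negative, FcεRI-positive cells of female C57BL/6 mice by the progenitor surface protein CD34, into 47 CD34-positive and 47 CD34-negative cells. No treatment or genetic change is named for either gate, and the age of the animals is not given in the sources used here. The cells came from 3 mice, but the labels tie no cell to a mouse, so each gate counts as 1 sample and no test or p-value is given. The cells of a gate describe its spread and are not replicates.

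After 1 shallow cell was left out of each gate, 46 cells per gate remained, with 262944 to 938322 gene reads per CD34-negative cell and 374011 to 1154738 per CD34-positive cell. Genes that define basophils held 52571 CPM (counts per 1000000 gene reads) in the CD34-negative gate and 101634 CPM in the CD34-positive gate. Of these 14 genes, however, 9 were lower in the CD34-positive gate and 5 had a log2 fold under -1, with a median of -0.33. Prss34, Mcpt8 and Cpa3, which encode proteases, held most of the CD34-positive sum. The marker lists of other blood cells summed to 109 CPM or less in either gate. The mast cell list was at 0.0299 and 7.33 CPM and the erythroid list at 0.837 and 24.2 CPM, CD34-negative first. Among the genes in these lists, Mcpt1, Mcpt2, Ltf, Camp, Hba-a1, Car1, Ear1, Ear6, Pf4, Ppbp, Cd3g, Trac and Ncr1 had 0 reads in both gates. The part of these lists in the results was not tested. Every reaction received ERCC spike-in RNA, a synthetic standard. The gates differed in gene reads per ERCC read, with 6.28 in the summed CD34-negative and 12.3 in the summed CD34-positive cells, a difference of 0.97 on the log2 scale. For this reason each fold is given on 2 scales, relative to all gene reads and relative to ERCC reads. CD34-positive cell 1 and CD34-negative cell 45 stood apart in their gates, with the most ERCC reads, the fewest genes found and the highest mitochondrial share. RNA content per cell and loss of RNA during preparation cannot be told apart on the ERCC scale.

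As a group, the ribosome biogenesis genes were higher on the CD34-positive side. Together they held 31404 reads, or 939 CPM, in the CD34-negative gate, and 64552 reads, or 2149 CPM, in the CD34-positive gate. On the gene-read scale the median log2 fold over the 40 genes, CD34-positive over CD34-negative with 1 CPM added to each side, was 1.27 (95% order-statistic interval over genes 0.76 to 1.82). The same median over all 12460 genes tested was 0.19. Of the 40 genes, 36 had a log2 fold above 0, where the background was 58.9% of all tested genes. With TMM or scran factors in place of total reads, 33 and 31 were above 0. The share of all tested genes was not computed with these factors. A log2 fold over 1 was reached by 25 of the 40, or 62.5%, against 21.7% of all tested genes. With TMM factors Ncl, Nat10, Pes1 and Ddx18 lay under 1, with scran factors Ncl, Npm1, Pes1 and Ddx18, and with cells numbered 7 to 42 alone Ncl, Npm1, Nat10, Utp18 and Ddx18. With a pseudocount of 10 CPM, Nhp2, Nat10, Wdr75, Utp18, Rrp12, Pes1 and Ddx18 lay under 1. None of the 40 was under -1, against 10.1% of all tested genes. With 1 CPM added, the range ran from -0.45 for Utp4 to 4.39 for Polr1b. With a pseudocount of 10 CPM Polr1b was at 1.88, below Dkc1 at 2.57. The median was 1.24 without CD34-positive cell 1 and 1.24 without CD34-negative cell 45, and 23 and 24 genes were over 1.

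On the ERCC scale all 40 genes lay above 0, against 87.6% of all tested genes, and 34 were over 1, against 52.7%. The median was 2.22 for the list and 1.06 for all tested genes. Most tested genes were thus higher in CD34-positive cells on this scale, and the list median lay above the median of all genes by 1.16 on the log2 scale, against 1.07 on the gene-read scale.

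**Figure D1:**
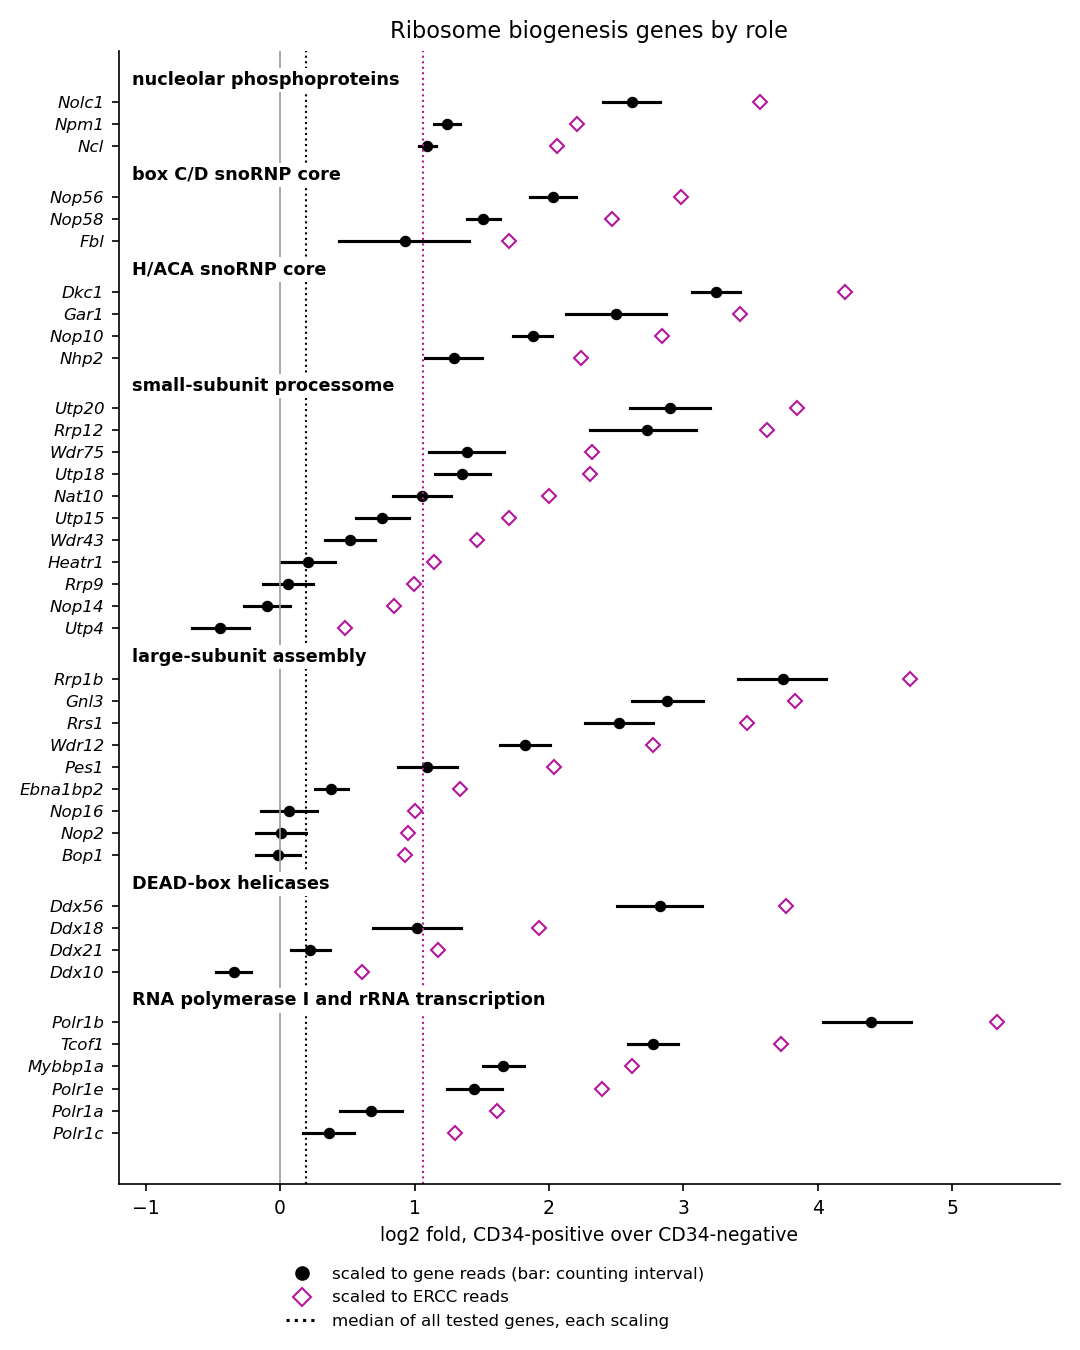
Log2 fold of each of the 40 genes, CD34-positive over CD34-negative, in groups by role. Filled circles are scaled to gene reads with counting intervals, open diamonds to ERCC reads, and dotted lines mark the medians of all tested genes at 0.19 and 1.06. The gene-read values, with 1 CPM added to each side, run from -0.45 for Utp4 to 4.39 for Polr1b.

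Among the nucleolar phosphoproteins, all 3 genes had a log2 fold over 1 on the gene-read scale, against 21.7% of all tested genes. For Ncl and Npm1, however, the side of 1 depended on the setting. Ncl encodes nucleolin, an abundant nucleolar protein that binds ribosomal RNA precursors. Ncl (chr1:86344719-86359400, minus strand, build GRCm38) was at 0 to 851 CPM in the CD34-negative cells, with a median of 70.2, and at 13.6 to 1130 CPM in the CD34-positive cells, with a median of 286. Every CD34-positive cell had Ncl reads, and the ranges overlapped widely. The log2 fold of the summed reads was 1.10 (counting interval 1.03 to 1.16), but 0.89 with TMM factors, 0.84 with scran factors and 0.78 with cells numbered 7 to 42 alone. Npm1 encodes nucleophosmin, a nucleolar chaperone of ribosomal proteins. Its median level was 63.7 CPM among CD34-negative cells against 133 CPM among CD34-positive ones, its highest values were 277 and 562 CPM, and its log2 fold was 1.24, but 0.97 both with scran factors and with cells numbered 7 to 42. The level of Npm1 is uncertain, since 24.3% of the 50-base windows of its transcripts also occur in transcripts of other genes. Ncl and Npm1 were the members seen most broadly. After 200000 gene reads had been drawn from every cell, Ncl was found in 36 of 46 CD34-negative and 46 of 46 CD34-positive cells, and Npm1 in 40 and 45.

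Nolc1, which encodes a chaperone of snoRNPs, had another profile. It was found in 6 CD34-negative and 30 CD34-positive cells, its median was 0 against 14.8 CPM, and its highest values were 222 and 704 CPM. Its log2 fold was 2.61, and 3.31 without CD34-negative cell 47. In Nolc1 the gates differed both in the number of cells with reads and in the highest level.

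The box C/D snoRNP core adds methyl groups to the ribose of ribosomal RNA. Nop56 and Nop58, its paired scaffold proteins, went from 18.1 to 76.9 CPM (log2 fold 2.03) and from 40.9 to 118 CPM (log2 fold 1.51). Nop56 was found in 12 CD34-negative and 34 CD34-positive cells, and Nop58 in 14 and 34. Both had a median of 0 over CD34-negative cells, and medians of 37.1 and 78.1 CPM over CD34-positive cells. Fbl, which encodes the methyltransferase fibrillarin, had the lowest fold of the 3 and few reads, at 1.05 CPM from 35 reads and 2.90 CPM from 87 reads. Its log2 fold was 0.93 (0.44 to 1.40), and 1.17 without CD34-negative cell 6. Of the 50-base windows of Fbl transcripts, as long as the reads, 19.7% also occur in transcripts of other genes, as do 18.7% of those of Nop56, and how reads that match several places were counted is not given in the sources used here.

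The H/ACA snoRNP core converts uridines of ribosomal RNA to pseudouridine. All 4 of its genes were over 1, against 21.7% of all tested genes. Their median of 2.19 was the highest of the 7 roles. Dkc1, the pseudouridine synthase dyskerin (chrX:75095854-75109777, plus strand), was at 0 to 249 CPM with a median of 0 in CD34-negative cells, and at 0 to 423 CPM with a median of 60.1 in CD34-positive cells. It was found in 5 and 30 cells. Its log2 fold was 3.24 (3.06 to 3.42), and 4.21 without CD34-negative cell 18, which held the highest CD34-negative value. Nop10, a short structural subunit, had reads in 13 and 38 cells and a log2 fold of 1.88. Per kilobase of coding sequence Nop10 was the highest member in both gates, at 135 and 511 CPM per kilobase. Counts are per gene while its coding sequence has only 0.192 kilobases, so this rank depends on the divisor. In CPM Nop10 was at 26.0 and 98.2, below Ncl at 172 and 368. Nhp2, an RNA-binding subunit, had the lowest fold of the group at 1.29, and 1.91 without CD34-negative cell 11 or 0.91 with a pseudocount of 10 CPM. Gar1, a protein that binds dyskerin, had a log2 fold of 2.50 from 1.67 and 14.2 CPM, and CD34-positive cell 17 held 24.9% of all its reads.

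The small-subunit processome is the large particle that forms on the start of the ribosomal RNA precursor. Its 11 genes were mixed, with a median of 0.76. Of them 9 were above 0 and 5 over 1, against 58.9% and 21.7% of all tested genes. Utp20, a very large scaffold protein, was highest. It was found in 2 CD34-negative and 21 CD34-positive cells, with highest values of 119 and 219 CPM, and its log2 fold was 2.90 (2.60 to 3.20). The higher of its CD34-negative cells was cell 36, without which the log2 fold was 4.71. Rrp12, an export and processing factor, rested on few reads, 13 CD34-negative against 247 CD34-positive, and was found in 1 and 10 cells. Its log2 fold was 2.73, and 2.12 without CD34-positive cell 22, which held 38.5% of its reads, and it was 0.81 with a pseudocount of 10 CPM and 4.09 with 0.1 CPM.

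Wdr75 and Utp18, both members of early processome subcomplexes, had log2 folds of 1.39 and 1.36, and of 2.04 and 1.95 without CD34-negative cells 8 and 36. With a pseudocount of 10 CPM they were at 0.81 and 0.98, and Utp18 was at 0.87 with cells numbered 7 to 42. Nat10, an RNA acetyltransferase, was at 1.06 and turned on single cells: the value was 2.69 without CD34-negative cell 21, which held 25.0% of its reads, and 0.54 without CD34-positive cell 1. Utp15 and Wdr43 had log2 folds of 0.76 and 0.52, and of 1.56 and 1.51 without CD34-negative cells 33 and 6. Single cells thus decided on which side of 1 these 3 genes fell. Heatr1, a scaffold of the first subcomplex, was at 21.1 and 24.5 CPM and had a log2 fold of 0.21, which turned to -0.27 with cells numbered 7 to 42 and to -0.05 without CD34-positive cell 19. Rrp9, a subunit of the U3 snoRNP, was at 27.4 and 28.5 CPM and had a log2 fold of 0.06, which turned to -0.14 with TMM and -0.24 with scran factors. Nop14 was at 33.6 and 31.3 CPM (log2 fold -0.10, interval -0.27 to 0.07, and 0.85 on the ERCC scale), and at 0.27 without CD34-negative cell 16. Utp4 had the lowest fold of the 40 genes, -0.45 (-0.66 to -0.23), from 24.6 and 17.8 CPM, and 0.48 on the ERCC scale. The Utp4 value was 0.10 without CD34-negative cell 5, which held 20.6% of its reads, so its direction rested on that cell. Even so, Utp4, Nop14 and Rrp9 were each found in more CD34-positive than CD34-negative cells, 12 against 8, 23 against 16 and 22 against 8.

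Of the 9 genes for large-subunit assembly, 5 were over 1, 3 lay between 0 and 1 and 1 was just under 0, with a median of 1.09. Over all tested genes, 21.7% were over 1 and 58.9% above 0. Rrp1b, a nucleolar partner of processing factors, was at 1.76 and 35.9 CPM, was found in 2 and 19 cells, and had a log2 fold of 3.74 (3.41 to 4.06). CD34-positive cell 15 held 26.1% of its reads, and the value without that cell was 3.33, and 4.79 without CD34-negative cell 28. Gnl3, the GTPase nucleostemin, was found in 2 CD34-negative and 23 CD34-positive cells, with log2 fold 2.88, and 4.31 without CD34-negative cell 18. Rrs1, which takes part in loading the 5S particle, was at 2.52, and 3.32 without CD34-negative cell 15.

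The PeBoW complex, made of Pes1, Bop1 and Wdr12, is needed for maturation of the large subunit. Its 3 genes did not share one level of difference. Wdr12 went from 15.6 to 57.7 CPM (log2 fold 1.82, and 3.19 without CD34-negative cell 27). Pes1 went from 13.2 to 29.3 CPM (log2 fold 1.09, and 0.88 without CD34-positive cell 40), and 23.3% of its 50-base windows are shared with other transcripts. Bop1 had 37.6 and 37.2 CPM, a log2 fold of -0.02 with an interval from -0.18 to 0.14, 0.93 on the ERCC scale and 0.32 without CD34-negative cell 24. In Bop1 the number of cells and the level in them went opposite ways: it was found in 9 CD34-negative and 23 CD34-positive cells at the drawn depth. At full depth 11 and 27 cells had a read, with a median level of 196 CPM in the former and 28.7 CPM in the latter. Nop2, an RNA methyltransferase, and Nop16, an assembly factor, had log2 folds of 0.01 and 0.07, and 0.66 and 0.88 without CD34-negative cells 30 and 8. With scran factors these 2 were at -0.14 and -0.33. Ebna1bp2, an assembly factor of the early large subunit, was at 0.38 and was found in 17 and 34 cells.

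DEAD-box helicases unwind RNA during assembly. The 4 of the list were split, with a median of 0.62 and 2 over 1, against 21.7% of all tested genes. Ddx56 was found in 4 CD34-negative and 23 CD34-positive cells, its highest values were 75.4 and 232 CPM, and its log2 fold was 2.82 (2.51 to 3.14), and 3.58 without CD34-negative cell 31. Ddx18 was at 1.02 on 168 and 336 reads, 0.73 without CD34-positive cell 34 and 1.81 without CD34-negative cell 27. More than any other member Ddx18 shares sequence with other genes, with 55.9% of its 50-base windows found elsewhere. Ddx21, which links polymerase I transcription to processing, had a log2 fold of 0.23, or -0.09 with scran factors, and was found in 16 and 37 cells. Ddx10 was the one member for which the typical CD34-negative cell had a read besides Ncl and Npm1. Its levels were 0 to 465 CPM with a median of 1.98 in CD34-negative cells, and 0 to 267 CPM with a median of 7.25 in CD34-positive cells. The summed log2 fold was -0.35 (-0.48 to -0.22), and -0.12 without CD34-negative cell 9. Ddx10 and Utp4 were the only members whose whole counting interval on the gene-read scale was below 0, and on the ERCC scale they were at 0.61 and 0.48.

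The 6 genes of RNA polymerase I and its transcription factors had a median of 1.55. Of these, 4 were over 1, against 21.7% of all tested genes. Polr1b, which encodes the second largest subunit of the enzyme (chr2:129100995-129126594, plus strand), had the largest fold of the list at a pseudocount of 1 CPM. It was at 0 to 8.26 CPM in CD34-negative cells and at 0 to 227 CPM in CD34-positive cells, with a median of 0 in both gates, and was found in 2 and 19 cells. From 13 and 847 reads its log2 fold was 4.39 (4.04 to 4.69). The fold was 4.19 without CD34-positive cell 17, its cell with most reads. With a pseudocount of 0.1 CPM the Polr1b fold was 5.86. With 10 CPM it was 1.88, below Dkc1 at 2.57. Polr1a, the largest subunit, did not follow Polr1b, with 13.6 and 22.3 CPM and a log2 fold of 0.68, or -0.21 with scran factors, and 1.56 without CD34-negative cell 46. Polr1c, a subunit that polymerase I shares with polymerase III, had the lowest value of the group at 0.36 (0.17 to 0.55). Polr1e, a subunit of the enzyme, was at 1.44. Tcof1 encodes treacle, a scaffold for polymerase I factors. CD34-negative cells ranged from 0 to 212 CPM of Tcof1 and CD34-positive cells from 0 to 706 CPM, with medians of 0 and 28.1. Tcof1 was found in 5 and 29 cells, and its log2 fold was 2.77, and 3.55 without CD34-negative cell 36. Mybbp1a, a nucleolar transcription regulator, was at 1.66 and was found in 12 and 36 cells.

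**Figure D2:**
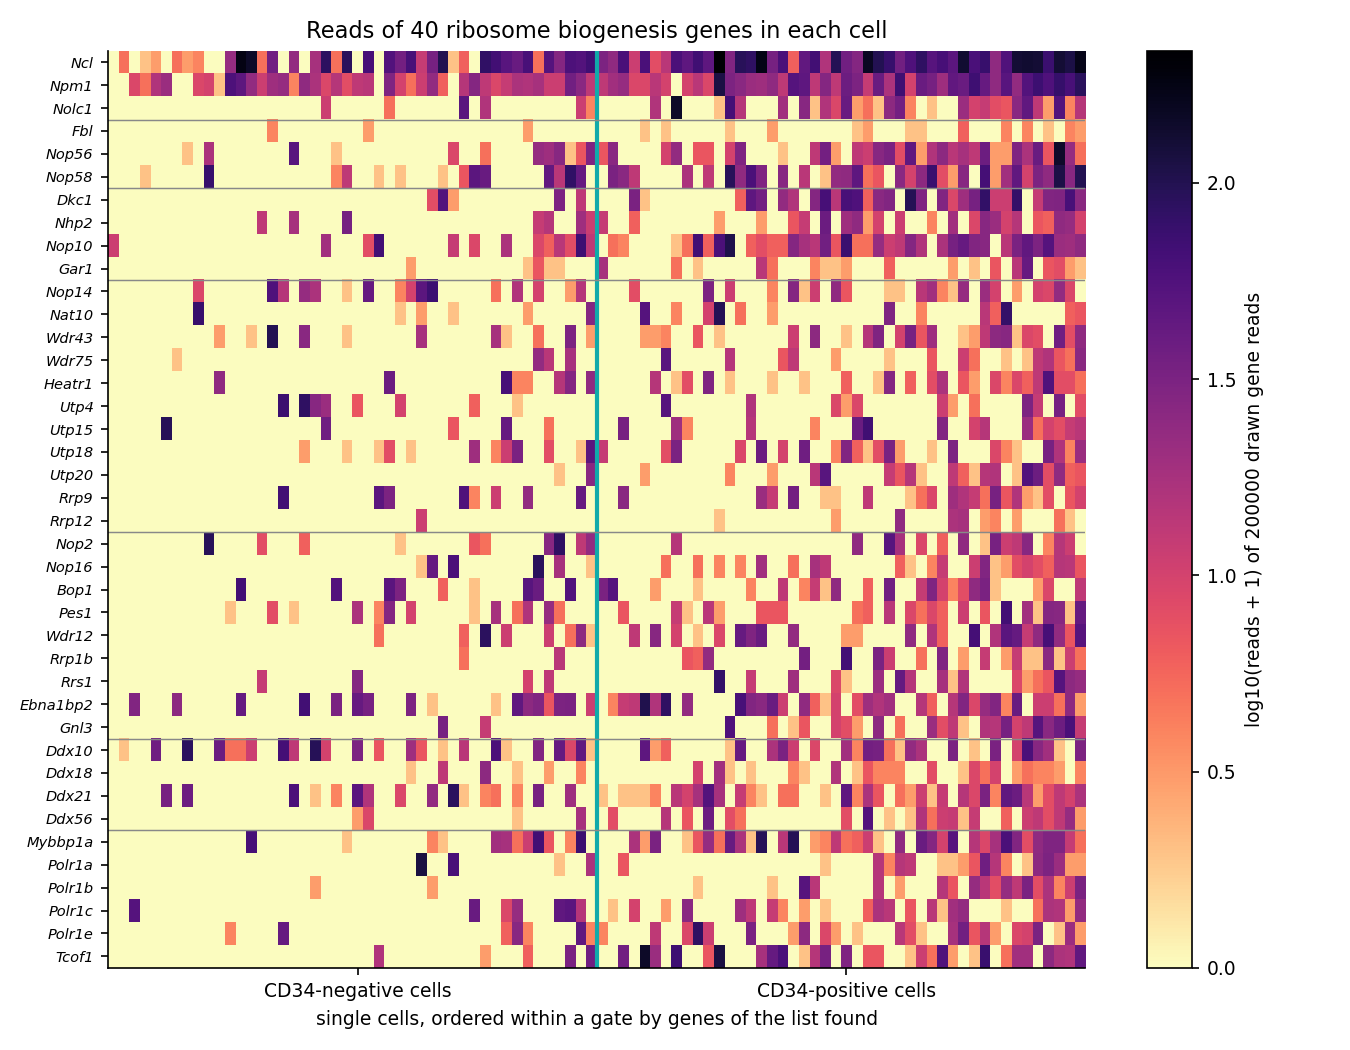
Reads of the 40 genes in each of the 92 cells after 200000 gene reads were drawn per cell, as log10(reads + 1). Rows are genes in order of role, separated by lines, and columns are cells ordered within a gate by the number of the 40 genes found. Ncl and Npm1 fill most columns in both gates, and Ddx10 has reads in 24 of 46 CD34-negative and 26 CD34-positive columns. The other rows are sparser on the CD34-negative side.

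The number of the genes found per cell separated the gates more than their level did. At the depth of 200000 gene reads the 46 CD34-negative cells held 1 to 19 of the 40 genes with a median of 8 (interval 6 to 9, SD over cells 4.64), and the CD34-positive cells held 9 to 37 with a median of 21.5 (16 to 23, SD 7.66). No CD34-negative cell reached the CD34-positive median and no CD34-positive cell was at or under the CD34-negative median. The ranges overlapped, with 27 CD34-negative cells below the lowest CD34-positive cell and 25 CD34-positive cells above the highest CD34-negative cell. All 40 genes were found in more CD34-positive cells, against 80.9% of all tested genes, and 33 of them in at least 10 more cells, against 32.5%. The average member was found in 20.7% of CD34-negative and 53.4% of CD34-positive cells, a ratio of 2.59. The ratio was 1.40 over all tested genes and 1.12 over 79 cytosolic ribosomal protein genes, which encode the ribosome's own proteins. Those were found in a median of 44 and 45 of 46 cells, so most of them had almost no room for a higher count, and nothing is read from their ratio.

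Among the cells with a read of a gene at full depth, the levels lay closer together. Over the 40 genes, the median of the median level in cells with a read was 37.5 CPM for CD34-negative and 43.3 CPM for CD34-positive cells, and the value was higher in CD34-positive cells for 28 genes, against 44.6% of 12433 tested genes with reads in both gates. It was lower for the other 12, against 55.4%. Per 1000 ERCC reads these values were 0.267 and 0.790, and 32 genes were higher and 8 lower, against 75.4% and 24.6% of these tested genes. The median over all cells was 0 CPM for 37 members among CD34-negative cells and for 12 among CD34-positive ones, against 64.9% and 43.7% of all tested genes. With sparse reads and 19 cycles of amplification, a gene that is absent from a cell and one that was not captured cannot be told apart.

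Summed over the list, single CD34-negative cells were at 12.7 to 2631 CPM with a median of 897, and CD34-positive cells at 594 to 5182 CPM with a median of 1949. The summed level overlapped more than the number of genes found. In all, 2 CD34-negative cells reached the CD34-positive median and 5 CD34-positive cells were at or below the CD34-negative median. The ratio of medians was 2.17, and 2.45 without Ncl and Npm1, so the ratio was no smaller without these 2 abundant genes. Per 1000 ERCC reads the medians were 5.42 and 23.3.

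**Figure D3:**
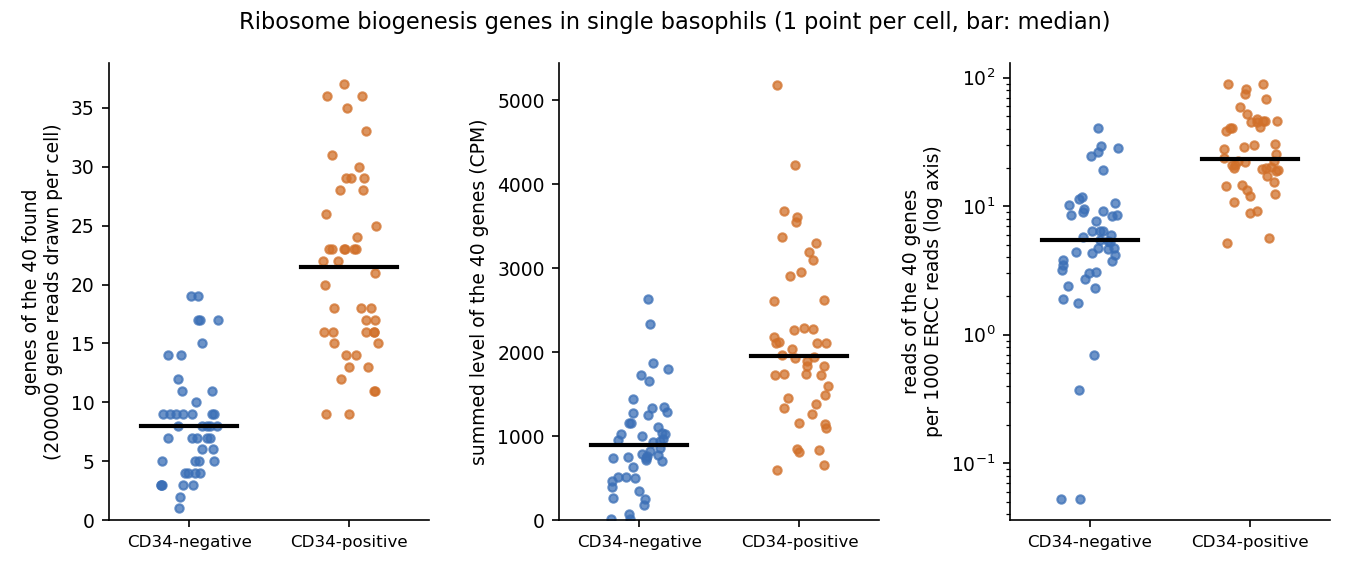
Each point is 1 cell and each bar a gate's median. From left to right the panels show how many of the 40 genes were found at 200000 gene reads (medians 8 and 21.5), their summed level in CPM (897 and 1949) and their reads per 1000 ERCC reads on a log axis (5.42 and 23.3).

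CD34-positive cells also had more of all tested genes, with a median of 6259 genes found at the same depth against 4332.5, a ratio of 1.44. Within a gate the number of the 40 genes found followed the number of all genes found. Pearson's r over 46 cells was 0.842 in the CD34-negative gate (Spearman's rho 0.764) and 0.742 in the CD34-positive gate (rho 0.793). Both counts come from the same drawn reads, so the relation is a description only. Cells of like complexity were therefore set side by side. Among cells with 4000 to 5000 genes found, 23 CD34-negative cells held a median of 8 of the 40 genes (range 3 to 12) and 4 CD34-positive cells a median of 15.5 (14 to 16). These ranges did not overlap. The 4 CD34-positive cells, numbers 2, 7, 9 and 43, had 25.5% to 33.1% of reads not aligned, against a gate median of 21.7%. Among cells with 5000 to 6000 genes found, the medians were 14 in 5 CD34-negative cells and 16 in 15 CD34-positive cells. With 6000 to 7000 genes found they were 19 in 3 and 23 in 18 cells. In these 2 richer windows the difference was 2 and 4 genes, against 13.5 over all cells, and the ranges overlapped.

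The same narrowing appeared with gene reads per ERCC read. At 5 to 10 gene reads per ERCC read the median number of the 40 genes found was 7 in 26 CD34-negative and 13 in 7 CD34-positive cells, at 10 to 15 it was 14.5 in 6 and 18 in 16 cells, and at 15 to 20 it was 18 in 2 and 22 in 11 cells. The CD34-positive median was higher in all 6 windows, which held as few as 2 cells of a gate. The summed level did not follow in every window: at 15 to 20 gene reads per ERCC read its median was 2213 CPM in the 2 CD34-negative and 1488 CPM in the 11 CD34-positive cells. How much of the difference in the list goes with the difference in RNA content was not tested further.

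**Figure D4:**
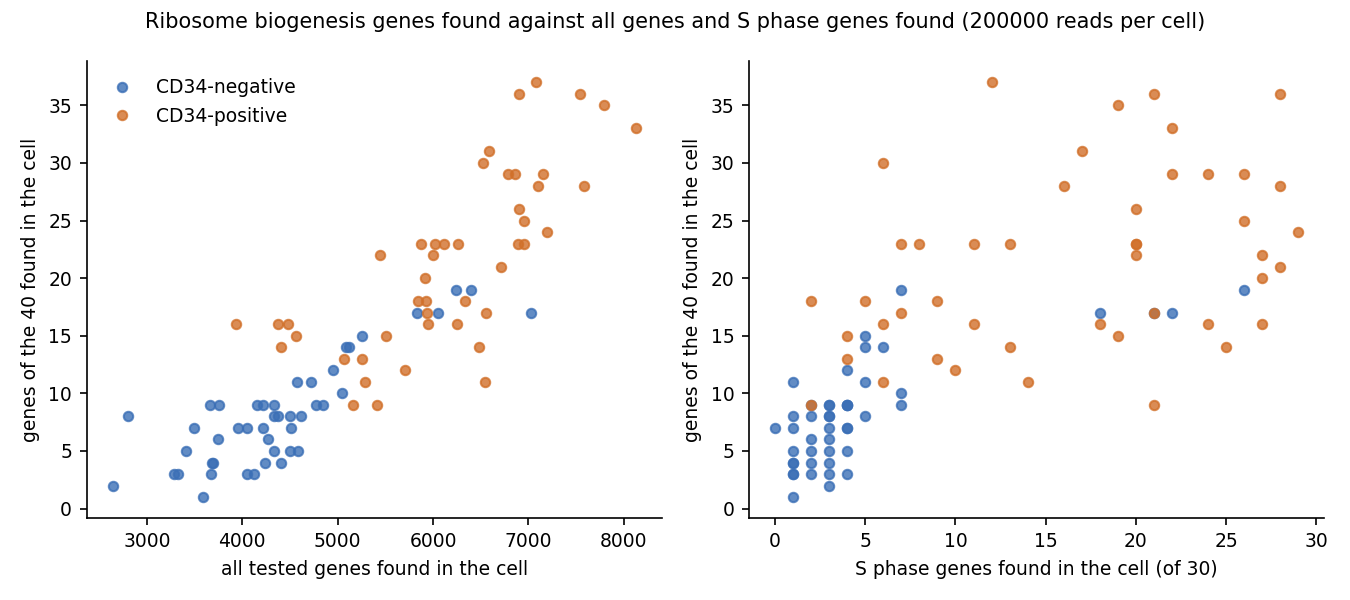
Number of the 40 genes found in each cell against all tested genes found (left) and against S phase genes found, of 30 (right), at 200000 gene reads per cell. On the left the count of the list goes up with all genes found in both gates (r 0.842 CD34-negative, 0.742 CD34-positive), with CD34-positive cells higher at 4000 to 5000 genes found, and on the right most CD34-negative cells sit at few S phase genes and low counts of the list.

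Ribosome production is tied to growth and division, so genes of the cell cycle were read in the same cells. All 30 S phase genes were above 0 (median log2 fold 2.23) and all 38 genes of the G2/M phase list too (median 2.03), against 58.9% of all tested genes, whose median was 0.19. In the CD34-negative gate the number of the 40 genes found went with the number of S phase genes found, with r 0.738 (rho 0.678), and 0.666 without cells 25 and 36, which had the most G2/M genes. In the CD34-positive gate r was 0.379 (rho 0.374). With G2/M genes r was 0.506 in CD34-negative cells, but 0.306 without those 2 cells, so that value rested on them, and 0.195 in CD34-positive cells. The number of gene reads drawn was equal, but gene reads per ERCC read were not. They spanned 2.34 to 21.1 over the CD34-negative gate and 2.93 to 28.9 over the CD34-positive one. Complexity is shared by all these counts.

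Some single cells lay far from the relation. The CD34-negative cells with the most of the 40 genes were cells 31 and 36, each with 19. Cell 36 had 26 of the 30 S phase and 35 of the 38 G2/M genes, while cell 31 had 7 and 4. In the CD34-positive gate cell 40 had the most, 37 of the 40 genes, with 12 S phase and 8 G2/M genes, and cell 46 had 11 of the 40 with 14 S phase genes and all 38 G2/M genes. The CD34-positive medians were 18.5 S phase and 8 G2/M genes. Other CD34-positive cells were high in both, such as cell 44 with 36 of the 40 genes and 28 S phase genes, and cell 35 with 35 of the 40 and all 38 G2/M genes.

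Members were also compared in pairs within the CD34-positive gate. For the 28 members found in at least 20 cells, the median Spearman's rho over 378 pairs was 0.148, against 0.027 over pairs of all 6930 genes found as often. The highest pairs were Gnl3 with Npm1 at 0.634, Nop10 with Npm1 at 0.588 and Nhp2 with Npm1 at 0.549. In the CD34-negative gate 3 members, Ncl, Npm1 and Ddx10, were found in at least 20 cells, and their highest pair was Ncl with Npm1 at 0.205. The pairs share 46 cells and drawn depth, and a rho this low between sparse genes is no finding.

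Among the genes outside the 40, those whose drawn reads followed the summed reads of the list most closely in both gates were taken from 4120 genes by the lower of the 2 rho values. Etfb, a subunit of the mitochondrial electron transfer flavoprotein, led with rho 0.555 and 0.670, CD34-negative first, and Cdk6, a kinase of the G1 phase, followed with 0.516 and 0.467. Hsp90aa1, a heat shock protein, Ptma, which encodes prothymosin alpha, and Cmtm7 came next at lower rho values of 0.424, 0.423 and 0.408. The other 5 were Gm12346, Gm14681, Gm42418, Gorasp2 and Prdx1, at 0.390 to 0.405. All 10 had folds above 0, with log2 values of 0.92 for Gm12346 up to 2.58 for Cdk6, against 42.4% above 0 and a median of -0.13 over the 4120 genes ranked.

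A further 116 genes of the pathway that are not among the 40 differed less. Their median log2 fold was 0.68, 89 were above 0 and 41, or 35.3%, were over 1, against 58.9% above 0 and 21.7% over 1 among all tested genes. On the ERCC scale their median was 1.62 and 113 were above 0, against 87.6% of all tested genes. The average gene of this list was found in 26.3% of CD34-negative and 50.4% of CD34-positive cells, a ratio of 1.92. This list and the 40 were chosen with earlier results of these data known, so nothing is read from the difference between them. The named genes are the 3 highest and the 2 lowest of each role among those that reached 10 CPM in one gate or the other.

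Of 37 other genes of the small-subunit processome, 30 were above 0 and 14 over 1, with a median of 0.83. The background for both roles here was 58.9% above 0 and 21.7% over 1 among all tested genes. Utp25, Pwp2 and Pno1 led with log2 folds of 4.04, 3.73 and 2.91, and Utp6 and Dcaf13 were lowest at -0.50 and -0.60. Of 47 other genes of large-subunit assembly, 38 were above 0 and 19 over 1, with a median of 0.86. Rrp15 had 0 reads in CD34-negative cells and 564 reads (18.8 CPM) in the CD34-positive gate, Nle1 was at 3.06 and Ppan at 3.03. Surf6 and Nop53 were lowest, at -0.90 and -1.07, and Nop53 was broadly present, with 333 and 158 CPM and found in 46 and 44 cells. The pathway thus held genes of both directions, with Nop53 still at -0.11 on the ERCC scale.

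The 11 other genes of RNA polymerase I transcription lay lower than the 6 of the list. Their median was -0.09, 5 were above 0 and 1 was over 1, both shares below the 58.9% and 21.7% of all tested genes. Taf1b, a subunit of the promoter selectivity factor, was at 1.06, Polr1f, a subunit of the enzyme, at 0.96 and Ubtf, which binds the ribosomal RNA promoter, at 0.85. Rrn3, the factor that brings the enzyme to the promoter, was at 42.8 and 20.9 CPM with a log2 fold of -0.998, and at -0.08 without CD34-negative cell 12, which held 34.4% of its reads. Ttf1, the termination factor, was at 78.0 and 30.2 CPM with a log2 fold of -1.34, and at -0.92 without CD34-negative cell 33. Of the 8 genes of snoRNP assembly 6 were above 0 and 4 over 1, from Znhit3 at 2.46, Ruvbl2 at 1.96 and Znhit6 at 1.08 down to Pih1d1 at 0.01 and Ruvbl1 at -0.74. Of 13 genes of the RNA exosome and exonucleases 10 were above 0 and 3 over 1, from Exosc2 at 2.61, Exosc9 at 1.71 and Xrn2 at 1.00 to Exosc1 at -0.17 and C1d at -0.51. The share of exosome genes over 1, 23.1%, lay near the 21.7% of all tested genes.

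**Figure D5:**
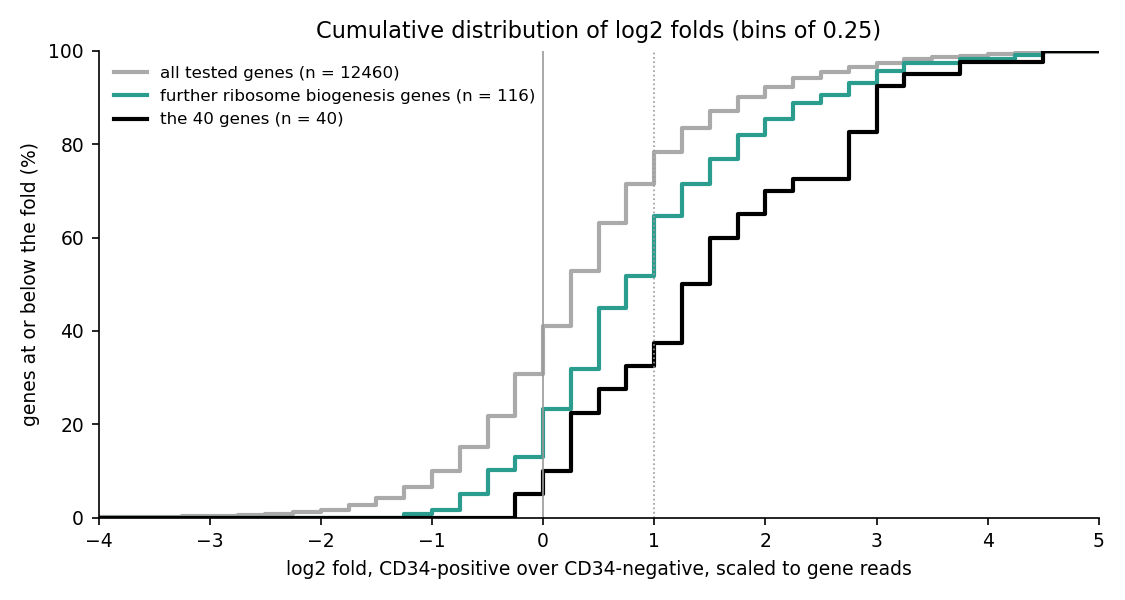
Cumulative share of genes by log2 fold, CD34-positive over CD34-negative on the gene-read scale, in bins of 0.25, for all 12460 tested genes, the 116 further pathway genes and the 40 genes. The curves step to the right in that order, with medians of 0.19, 0.68 and 1.27. Both gene lists were chosen with earlier results of these data known.

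The snoRNAs that guide rRNA modification are cut from introns of host genes, many of them noncoding. Of 11 such noncoding hosts 10 were above 0 and 4 over 1, against 58.9% and 21.7% of all tested genes, with a median of 0.79. Gas5, the most broadly found, was at 99.0 and 207 CPM in 39 and 46 cells, with a log2 fold of 1.06. Snhg8 and Epb41l4aos were at 1.67 and 1.10, and Snhg6 was at 0.99. Snhg15 had 7 reads against 1144 and a log2 fold of 5.01, but 41.9% of its reads were in CD34-positive cell 1. Snhg12, Snhg20, Snhg9, Snhg3 and Snhg5 lay between 0.16 and 0.79, and Zfas1 was at -0.05.

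The product of polymerase I itself lacks a poly(A) tail and is not a target of the oligo-dT priming used here. Gene models at the ribosomal RNA locus nevertheless held many reads. CT010467.1 was at 57298 and 55550 CPM with a log2 fold of -0.04, and Gm26917 at 10501 and 17934 CPM with a log2 fold of 0.77. On the gene-read scale these 2 models gave no common direction, and on the ERCC scale they were at 0.92 and 1.74. Without them in the total the list median was 1.28.

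MYC binds the E-box letters CACGTG together with MAX, and proteins of the MXD family bind the same letters with MAX and repress. Of the 10 genes of this network, Myc was at 59.5 and 127 CPM, found in 15 and 32 cells, with a log2 fold of 1.08. CD34-positive cell 1 held 22.1% of the Myc reads, and the value without it was 0.52. Max went the other way, at 98.7 and 30.5 CPM with a log2 fold of -1.66. Mxd1, a MAX partner of differentiated cells, was the most abundant of the network in CD34-negative cells, at 567 CPM against 159 CPM, with a log2 fold of -1.83. Mxi1 was at 163 and 63.3 CPM with a log2 fold of -1.35. These 3 genes stayed below 0 on the ERCC scale as well, at -0.72, -0.86 and -0.39, where 87.6% of tested genes were above 0. Mxd3, which is known from dividing cells, was at 8.52 and 22.3 CPM with a log2 fold of 1.29, and 0.72 without CD34-positive cell 28.

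The other members of the network lay near 0 or had few reads. Mga was at 0.11, Mxd4 at -0.16 and Mnt at -0.51, and Mycn and Mycl had at most 5 reads in a gate. Across cells, Myc CPM and the summed CPM of the 40 genes had r 0.065 (rho 0.159) over the 46 CD34-negative cells, and r 0.317 (rho 0.384) over the 46 CD34-positive ones. Both levels are divided by the same library total. Myc CPM against the number of the 40 genes found had r 0.185 (rho 0.296) in CD34-negative cells. In CD34-positive cells r was 0.026 (rho 0.394), and 0.462 without the 2 cells farthest from the median.

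Of the 40 genes, 34 had a promoter in the RefSeq table used (build GRCm38.p6), which spans 250 bases before to 50 after each start. The letters CACGTG, which read the same on both strands, occurred in 7 of the 34 promoters, or 20.6%. They occurred in 18 of 95 promoters of the further pathway genes, or 18.9%, in 12.2% of the promoters of tested genes and in 8.09% of all promoters in the table. The windows around these letters are shown because they hold the letters that the proteins of the network above are known to bind, and binding was not measured here. They are read on the strand of the gene, and the E-box is in capitals.
Nop2, chr6:125131811-125131840, plus strand: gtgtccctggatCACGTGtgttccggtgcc
Utp4, chr8:106893643-106893672, plus strand: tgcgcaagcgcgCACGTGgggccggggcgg
Utp20, chr10:88826765-88826789, minus strand: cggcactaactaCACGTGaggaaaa
Pes1, chr11:3963965-3963994, plus strand: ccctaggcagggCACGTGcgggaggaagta
Mybbp1a, chr11:72441355-72441376, plus strand: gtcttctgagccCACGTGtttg
Utp18, chr11:93885769-93885798, minus strand: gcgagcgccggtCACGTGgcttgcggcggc
Wdr43, chr17:71616220-71616249, plus strand: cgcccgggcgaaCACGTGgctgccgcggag

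The letters did not mark the genes with the largest folds. The 7 genes had log2 folds from -0.45 for Utp4 to 2.90 for Utp20 with a median of 1.09, and the 27 without the letters had a median of 1.29. Both the highest and the lowest gene of the processome, Utp20 and Utp4, carried them. Other letters were searched after the values had been seen, on both strands. GGGCGG was in 76.5% of the 34 promoters against 69.1% of those of tested genes, CCGGAAG in 32.4% against 22.9%, TATAAA in 5.88% against 7.73%, and AAGATGG in 0 of 34 against 9.10%. The promoters of the list had a median G+C content of 56.7%, against 61.0% for tested genes. A match is a description of letters and does not show binding.

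Free ribosomal proteins of a disturbed nucleolus are known to stabilise p53, so genes of that response were read too. Trp53, which encodes p53, was at 64.7 and 132 CPM with a log2 fold of 1.02, and found in 25 and 42 cells. Cdkn1a, a p53 target that stops the cell cycle, was at 2.33 and 18.1 CPM with a log2 fold of 2.52, found in 2 and 11 cells, with 29.1% of its reads in CD34-positive cell 13. Mdm2, the antagonist of p53, was at 82.7 and 102 CPM with a log2 fold of 0.30. Rpl11 and Rpl5, the ribosomal proteins that bind the MDM2 protein, were at 1.44 and 0.13, and Cdkn2a had 0 reads in both gates. The ribosomal protein genes as a class differed less than the genes that build the ribosome, at a median of 0.54 on the log2 scale for 79 of them, of which 72 were above 0 and 15 over 1. Of all tested genes 58.9% were above 0 and 21.7% over 1, so 15 of 79 over 1 was not above that background.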

How the data were processed

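The authors deposited 1 table of raw read counts per gene, with ERCC sequences and summary categories, for 94 single cells. Per the submitters' processing notes, GSNAP, HTSeq 0.5.3p3 and build mm10 were used. The annotation, the strand setting and the handling of reads that match several places are not given in the sources used here. Gene reads were 32.4% and ERCC reads 3.97% of the table. Reads per cell, 50 bases long and without molecular identifiers, bound the precision. Intervals are 95%. Those of sums are exact Poisson and cover counting error only, and those of medians are order statistics and reflect the spread between cells or genes.

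Cells with at least 50000 gene reads, 1000 genes, under 20% mitochondrial and under 50% ERCC reads were kept, 46 per gate. Counts were summed per gate and scaled to gene reads (CPM) or ERCC reads. A log2 fold adds 1 CPM to both sides, which understates folds of low genes. Fold intervals set one gate's upper bound against the other's lower bound. Background genes had reads in at least 10 kept cells. Detection used 200000 gene reads drawn per cell with a fixed seed. The fold and the drawing were tested on simulated data. Alternatives were TMM factors (edgeR 4.0.16), scran 1.30.0, pseudocounts of 0.1 and 10 CPM, other totals, other cell sets and leaving out each cell. Coordinates, coding lengths and the 50-base windows shared with other genes come from GENCODE for GRCm38. Exons of other genes overlap 16 of the 40 genes, by at most 8.12% of exon length, and such genes cannot be told apart without the strand setting.

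The 40 genes, the further lists and the tests were chosen with earlier results of these data known. The genes described in full are those with the largest, the smallest and the lowest-bound fold of each role. The further lists are named by the 3 highest and 2 lowest folds among genes with at least 10 CPM, and the snoRNA host, MYC network, p53 and rRNA locus lists in full. The 10 genes most like the list had the highest lower rho of both gates among genes found in at least 20 cells of each. Of 117 further pathway genes 116 were matched, 4 by an older symbol.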

Additional observations from a re-analysis of the deposited data

Results flagged for a closer look

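The 2 shallow cells that entered no comparison also held reads of the 40 genes, above the floor of 3 reads that a count of 0 allows. CD34-negative cell 20 had 5 such reads among 24565 gene reads, or 204 CPM against a floor of 122 CPM, from 3 of the 40 genes. CD34-positive cell 3 had 58 such reads among 31504 gene reads, or 1841 CPM against a floor of 95.2 CPM, from 16 of the 40 genes. The value of each cell lay within the range of the kept cells of its gate, 12.7 to 2631 CPM and 594 to 5182 CPM.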

How the results depend on the processing

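No paired analysis was possible because the cell numbers only name cells, each gate is 1 sample, and no result comes from a test. With ERCC in place of gene reads the median log2 fold of the 40 genes moved from 1.27 to 2.22, that of the further pathway genes from 0.68 to 1.62, and the ratio of the median summed level per cell from 2.17 to 4.30. With scran factors the pathway median was 0.42, and with a pseudocount of 10 CPM the ERCC-scaled median of the 40 genes was 1.61. Leaving out each cell in turn gave medians of 1.15 to 1.35 and counts over 1 of 23 to 26 on the gene-read scale, 2.09 to 2.31 and 32 to 37 on the ERCC scale, and a pathway median of 0.59 to 0.79. On the gene-read scale 18 (pseudocount of 10 CPM) to 27 (each gene without its top cell) of the 40 genes were over 1 across the settings. On the ERCC scale 31 (pseudocount of 10 CPM) to 37 (without CD34-positive cell 1) were. The share of all tested genes over 1 was not computed for each of these settings.

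The difference of 13.5 in genes found per cell was 2 and 4 in cells with 5000 to 6000 and 6000 to 7000 genes found, and 3.5 and 4 in cells with 10 to 15 and 15 to 20 gene reads per ERCC read. These windows were chosen after the values were seen. The relation to G2/M genes in CD34-negative cells was 0.306 both without the 2 cells farthest from the median and without cells 25 and 36, against 0.506. Relations between summed levels differed from those between numbers of genes found. In CD34-positive cells the relation to S phase genes was 0.566 between levels per ERCC read and 0.222 between levels per gene read, against 0.379 between numbers of genes, and that to G2/M genes was -0.0114 per gene read, against 0.195. In CD34-negative cells the levels per gene read gave 0.431 for S phase genes, against 0.738, and 0.185 for G2/M genes, against 0.506. The levels per gene read were added after the values were seen. The share of tested genes over 1 was 15.9% with no filter on low genes and 23.3% among genes with at least 10 CPM in a gate, against 21.7%. The cause of these shifts was not tested.

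For single genes, 318 of 560 values under other settings kept their sign inside the counting interval, 212 kept it outside, and 30 changed sign. The 30 belong to 10 genes with folds of -0.45 to 0.68, and no gene over 1 changed sign. Without 1 cell, 7 genes crossed 1. Nat10, Pes1 and Ddx18 fell under it, and Fbl, Wdr43, Utp15 and Polr1a rose over it. The fold of 20 genes moved by over 1.5 times without 1 cell. Few reads limit Fbl, Gar1, Rrp12 and Polr1b most.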

Other observations

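For 12 of the 40 genes, cells with a read held a lower level in the CD34-positive than in the CD34-negative gate, although more CD34-positive cells had a read. The share with a lower level was 55.4% over tested genes with reads in both gates. Per ERCC read, 8 of the 40 genes had a lower level, against 24.6%. The median level among cells with a read was 196 and 28.7 CPM for Bop1, 152 and 41.2 CPM for Rrp9, and 110 and 22.4 CPM for Heatr1, CD34-negative first. For Polr1c it was 128 and 56.3 CPM and for Ebna1bp2 137 and 73.2 CPM. On the ERCC scale Ebna1bp2 turned, with 0.837 and 1.12 reads per 1000 ERCC reads, and the other 4 stayed lower in CD34-positive cells. The cells with a read at full depth, over which these medians were taken, numbered 11 and 27 for Bop1, 10 and 23 for Rrp9, 9 and 26 for Heatr1, 8 and 26 for Polr1c, and 22 and 35 for Ebna1bp2.

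Of the 10 genes of the MYC network, 5 lay above 0 and 5 below 0 on the gene-read scale. Max, Mxd1 and Mxi1 lay below 0 on both scales, while Myc and Mxd3 were at 1.08 and 1.29 on the gene-read scale. Of the 40 ribosome biogenesis genes 36 lay above 0 on that scale, against 58.9% of all tested genes. A link between the network and the list was not tested. Mxd1 was found in 45 and 41 cells, so its difference was one of level in cells that nearly all had reads.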
